A study of Mus musculus with 15 samples.

Results

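The 10 genes described here form the core of canonical WNT signalling. They are the 4 TCF/LEF transcription factors Tcf7, Tcf7l1, Tcf7l2 and Lef1, the co-activator beta-catenin (Ctnnb1), Axin1, Axin2, Apc and Gsk3b of the complex that destroys beta-catenin, and the co-receptor Lrp6. They were chosen by name and not by their values, although earlier results of these data were known. The CG sites of a gene were those inside its GENCODE M21 span on mm10 and in the 2 kb upstream of it. The genes are 10 of the 20807 autosomal protein-coding genes and hold 13911 of the 20383623 autosomal CGs, or 0.0682%.

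On the plus strand lie Lef1 (chr3:131110471-131224356), Ctnnb1 (chr9:120929216-120960507), Axin2 (chr11:108920349-108950783), Gsk3b (chr16:38089001-38246084), Axin1 (chr17:26138688-26195811), Apc (chr18:34220924-34322552) and Tcf7l2 (chr19:55741820-55933654). On the minus strand lie Tcf7l1 (chr6:72626378-72789254), Lrp6 (chr6:134446476-134566965) and Tcf7 (chr11:52252371-52283014). The genes hold from 517 CGs in Axin1 to 2928 in Tcf7l2, and their principal transcripts have 10 exons in Tcf7 to 23 in Lrp6.

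5-Hydroxymethylcytosine (5hmC) was mapped by hmTOP-seq in genomic DNA of E14TG2a, a mouse embryonic stem cell (mESC) line grown on gelatin with LIF and serum. In hmTOP-seq, 5hmC is tagged with an azide-bearing glucose by the enzyme BGT, an oligonucleotide is tethered to the tag, and reads are primed at or next to the tagged CG. Libraries were made from 500, 50 and 5 ng of input DNA with 2 technical replicates each. Each input also had 2 control libraries prepared without BGT labeling, and 3 uTOP-seq libraries of 300 ng read unmodified CGs (uCGs). All libraries came from untreated cells of 1 line, so that the p-values below measure the spread between technical replicates and not between cultures.

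The 5hmC libraries of 500 ng held 31918445 to 32502791 reads, those of 50 ng 22052535 to 23027170, and those of 5 ng 14884939 to 15277636. The uTOP-seq libraries held 20120568 to 28412885 reads and the control libraries 3409 to 10072. Levels are given as reads per CG, which allows for the number of CGs in a gene. Where libraries of different depth are compared, this value was divided by the library's own autosomal mean and is called relative coverage.

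In canonical signalling, WNT ligands bind Frizzled receptors and LRP5 or LRP6, the destruction complex of AXIN, APC and GSK3 is inactivated, and beta-catenin enters the nucleus to join TCF/LEF factors on target genes. In mESCs the pathway is known for its part in self-renewal, with Tcf7l1 (also called Tcf3) acting as a repressor of pluripotency genes, and Axin2 as a feedback target that the pathway itself induces. 5hmC is made from 5-methylcytosine by TET enzymes. It is typical of gene bodies and enhancers and scarce at CG islands around gene starts, where CGs are mostly unmodified.

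The CG with the most reads in each gene shows where the signal reached its highest local value. These sites are given below as 28-base windows of GRCm38/mm10 on the strand of the gene, 5′ to 3′, with the counted CG in capitals. No window is printed for Apc.
Tcf7 (chr11:52274953-52274980, intron 2): gggtgaaaggctgCGggggcagctgctg
Tcf7l1 (chr6:72730569-72730596, intron 3): agaccctggctgcCGggacacaatcagc
Tcf7l2 (chr19:55745486-55745513, intron 3): attccttacagccCGgggtggaacctac
Lef1 (chr3:131139951-131139978, intron 3): cttcgcgttgaccCGcaaggaaggaagt
Ctnnb1 (chr9:120930580-120930607, intron upstream of the principal transcript): tttgctctggagcCGttcatgggctgcg
Axin1 (chr17:26174471-26174498, intron 3): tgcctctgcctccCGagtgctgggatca
Axin2 (chr11:108935742-108935769, intron 3): caattaagtccccCGggcctttgcaaga
Gsk3b (chr16:38117990-38118017, intron 1): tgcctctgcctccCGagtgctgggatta
Lrp6 (chr6:134450981-134451008, coding part of exon 23): ctatgctcctagcCGgaggatgacctcg

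Of the 10 strongest sites 9, that of Apc included, lay in introns, and the Lrp6 site lay in the last exon. Introns held most of the CGs of every member, from 568 of 861 in Axin2 to 2328 of 2540 in Tcf7l1. The count of 9 therefore does not show a preference of strong sites for introns. The Tcf7l1 site had 101 and 76 reads in the 500-ng libraries, 22.3 times the mean of the gene. The 50-ng libraries gave 86 and 57 reads there, and the 5-ng libraries 16 and 84. The Axin2 site had 65 and 64 reads in the 500-ng libraries, but 42 and 3 in those of 50 ng and 11 and 0 in those of 5 ng. The Tcf7l2 site had 67 and 57 reads in the 500-ng libraries, 7 and 17 in those of 50 ng, and 11 and 0 in those of 5 ng. The Lrp6 site had 39 and 29 reads in the 500-ng libraries, 28 and 32 in those of 50 ng, and 13 and 0 in those of 5 ng. At the Ctnnb1 site they had 26 and 16, then 14 and 12, then 3 and 3. The sites were chosen for their high mean at 500 ng, so that a lower count at the lower inputs is in part set by that choice, and the spread between inputs was not tested. None of the 10 strongest sites had a read in any of the 6 control libraries. Those libraries held only 3386 to 9946 autosomal reads over 20383623 CGs, so that a read at any 10 CGs was unlikely in any case. The windows of Axin1 and Gsk3b lay in soft-masked repeats and occurred 618 and 16193 times on chromosomes 1 to 19, so that the place of their reads (38 and 29 for Axin1, 42 and 33 for Gsk3b) is less certain than at the other 8 windows, each of which occurred once.

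For contrast, 3 windows of 30 bases show, on the strand of the gene, CG-dense DNA within 500 bp upstream of the principal transcript start that had no 5hmC read at 500 ng, for the 3 genes with the lowest 5hmC within 1 kb of that start, with every CG in capitals.
Tcf7l2 (chr19:55741939-55741968): CGagCGgcaCGagatccttCGgtgtcttCG
Gsk3b (chr16:38088540-38088569): tCGggCGcacttggtaagcCGCGcccCGCG
Lrp6 (chr6:134567060-134567089): CGgCGCGCGCGgCGgtCGCGgctccCGggg
The 5 CGs of the Tcf7l2 window had 4, 0 and 4 uCG reads in the uTOP-seq libraries. The 6 CGs of the Gsk3b window had 9, 14 and 4 uCG reads, and the 9 CGs of the Lrp6 window had 3, 2 and 3.

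Over the gene and its upstream 2 kb, the members spanned a 5hmC level from 1.18 to 4.01 reads per CG at 500 ng. Tcf7, which encodes TCF1, was highest, with 3.97 and 4.06 reads per CG in the 500-ng libraries. Tcf7l1 followed with 4.04 and 3.89 reads per CG, and the libraries of these genes overlapped. Axin2 had 3.50 and 3.33 reads per CG, and Lef1, whose factor is known for strong activation with beta-catenin, had 3.12 and 3.18; these did not overlap each other or the first pair. Tcf7l2, which encodes TCF4, came next with 2.43 and 2.37 reads per CG. All 4 TCF/LEF genes and Axin2 therefore stood above the other 5 genes in both libraries.

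Apc, the scaffold that binds beta-catenin in the destruction complex, had 1.85 and 1.77 reads per CG at 500 ng. Ctnnb1 had 1.80 and 1.74 reads per CG, and Gsk3b, the kinase that marks beta-catenin for destruction, had 1.77 in both libraries. The values of these 3 genes overlapped. Lrp6 had 1.49 and 1.62 reads per CG. Axin1, the constitutive scaffold of the complex, was lowest with 1.19 and 1.16, so that the paralogs Axin1 and Axin2 lay at opposite sides of the list, at the percentiles 39.7 and 85.4 of all genes.

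The relative coverage of the genes ranged from 0.753 ± 0.00516 (SD, n = 2) for Axin1 to 2.57 ± 0.0747 for Tcf7. The median of the 10 genes was 1.35 and that of all genes 0.973, and 9 of the 10 lay above the median of all genes. In introns, 8 of 10 members lay above the median of all genes, with a median relative coverage of 1.35 against 0.961. In exons, 8 of 10 did so, with 1.66 against 1.11. In promoters, the upstream 2 kb, the members were close to all genes, with 6 of 10 above the median and a median relative coverage of 0.662 against 0.610.

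**Figure D1:**
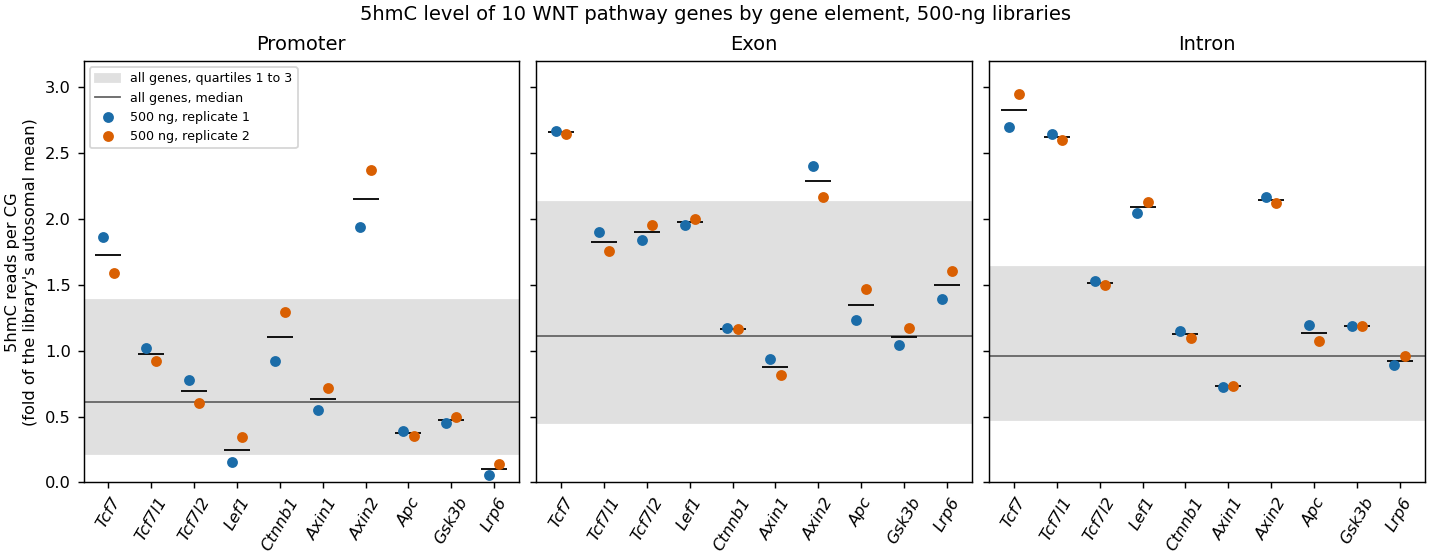
Relative 5hmC coverage (reads per CG divided by the autosomal mean of the library) of the 10 genes in promoters, exons and introns; points are the 2 libraries of 500 ng, bars their mean, the line and grey band the median and interquartile range of all autosomal protein-coding genes. Lef1 and Lrp6 sit low in the promoter panel (0.248 and 0.0979), while Tcf7 and Tcf7l1 lie above the band in introns (2.83 and 2.62).

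A CG was covered in both 500-ng libraries at 5127 of the 13911 member CGs, or 36.9%, against 23.4% of all autosomal CGs. At 50 ng the shares were 17.2% and 9.78%, and at 5 ng 2.54% and 1.29%. All autosomal CGs include those outside genes, and the share over the CGs of all genes was not counted. Among the members the share at 500 ng ran from 22.2% in Axin1 to 51.3% in Tcf7l1, with 50.5% in Tcf7. The top 10% of CGs by reads held 46.2% of the 5hmC reads in Tcf7 and 61.4% in Gsk3b, with the other genes between. The CGs were ranked by the same sparse counts, so that a high share is in part set by the ranking. This share was not counted over all genes.

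Within the genes, 5hmC of the promoter was compared with that of the introns by edgeR's quasi-likelihood test on the counts of both 500-ng libraries, with the number of CGs as offset and Benjamini-Hochberg adjustment over 16826 genes. None of the 10 members was higher in the promoter and 7 were lower, where 25% of all genes tested were called higher and 49.8% lower (74.8% in either direction). Lrp6 had 0.0854 and 0.220 promoter reads per CG against 1.40 and 1.48 in introns, a log2 difference of -3.24 ± 0.24 (SE; adjusted p = 2.4e-18), with -2.75 and -4.03 when 1 of the libraries was left out. Lef1 had 0.242 and 0.530 promoter reads per CG against 3.23 and 3.30 in introns (log2 -3.08 ± 0.17, adjusted p = 4.3e-24, and -2.64 and -3.74 without 1 library). The promoters of Lrp6 and Lef1 thus had the least 5hmC of the list, although the introns of Lef1 came next after those of Tcf7, Tcf7l1 and Axin2 in reads per CG.

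The other calls were smaller. Apc differed by -1.60 on the log2 scale, Tcf7l1 by -1.43, Gsk3b by -1.33, Tcf7l2 by -1.13 and Tcf7 by -0.71, with adjusted p of at most 9.2e-10 in the same edgeR test. The differences of Axin1 (-0.20 ± 0.20), Ctnnb1 (-0.02 ± 0.20) and Axin2 (0.01 ± 0.10) did not pass the threshold. Axin2 had the most 5hmC in the upstream 2 kb, with 3.06 and 3.68 promoter reads per CG against 3.42 and 3.29 in its introns.

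These last 3 results changed with the width of the promoter. With 1 kb upstream in place of 2 kb, the promoter was lower than the introns in 10 of 10 members, where 55% of 15981 genes tested were called lower, with log2 differences of -0.71 for Ctnnb1, -1.53 for Axin1 and -1.46 for Axin2 (edgeR adjusted p = 0.025, 2.7e-05 and 3.8e-09). The profile of Axin2 showed the change of level: 16.5 5hmC reads per CG over the 5 CGs between 2000 and 1500 bp upstream of the start, 3.82 over the 11 CGs between 1000 and 500 bp, and 0.267 over the 30 CGs of the last 500 bp. In Ctnnb1 the annotated gene starts 4184 bp before the principal transcript, so that the 2 kb counted as its promoter lie before that earlier start. With the 2 kb upstream of the principal transcript, an alternative chosen after the values were seen, the log2 difference of Ctnnb1 was -0.30 (edgeR adjusted p = 0.049), and 8 of 10 members were lower, where 51.7% of 16825 genes tested were.

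Around the start of the principal transcript the fall in 5hmC was common to the members. Within 1 kb on each side of it the 10 genes held 1495 CGs, of which 1354 (90.6%) had no 5hmC read in either 500-ng library. Over all genes, neither this share nor the share with a uCG read given below was counted. The mean was 0.291 5hmC reads per CG in the members and 0.933 over all genes. The windows of the members were denser in CGs, with 1495 in 10 genes against 1426688 in 20807 genes. The members were not compared with starts of like CG density, so that the lower mean cannot be read as particular to them. Tcf7l2 had 2 and 3 5hmC reads over the 164 CGs of this window, Gsk3b 3 and 8 over 177, and Lrp6 11 and 21 over 173. In the same windows the uTOP-seq libraries gave 267, 232 and 192 uCG reads for Tcf7l2. They gave 473, 409 and 369 for Gsk3b, and 269, 200 and 196 for Lrp6. Of the 1354 CGs without a 5hmC read, 941 (69.5%) had a uCG read in at least 1 of the 3 uTOP-seq libraries, with a mean of 1.71 uCG reads per CG; the share ran from 77 of 159 such CGs in Lrp6 to 105 of 126 in Tcf7l1. The windows of the members were also lower in uCG than those of all genes, with 1.92 against 2.63 uCG reads per CG, and lowest in Lrp6 (1.28), Ctnnb1 (1.39) and Tcf7l2 (1.40). How far a low yield of both assays at these CGs enters the 5hmC values was not tested.

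Tcf7 stood apart from this pattern, with 188 and 196 5hmC reads over 139 CGs within 1 kb of the principal start, or 1.38 reads per CG, where the other 9 genes had 0.0152 to 0.390. In Tcf7 the CG-dense stretch without 5hmC lay upstream of that start: 64 CGs between 1000 and 500 bp upstream had no 5hmC read, and 46 CGs in the next 500 bp had 0.0652 reads per CG. The 500 bp from the start onwards already had 5.59 reads per CG. The annotated gene start of Tcf7 lies 443 bp before the principal transcript. On its other side 5hmC was high again, with 8.0 reads per CG between 2500 and 2000 bp upstream.

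**Figure D2:**
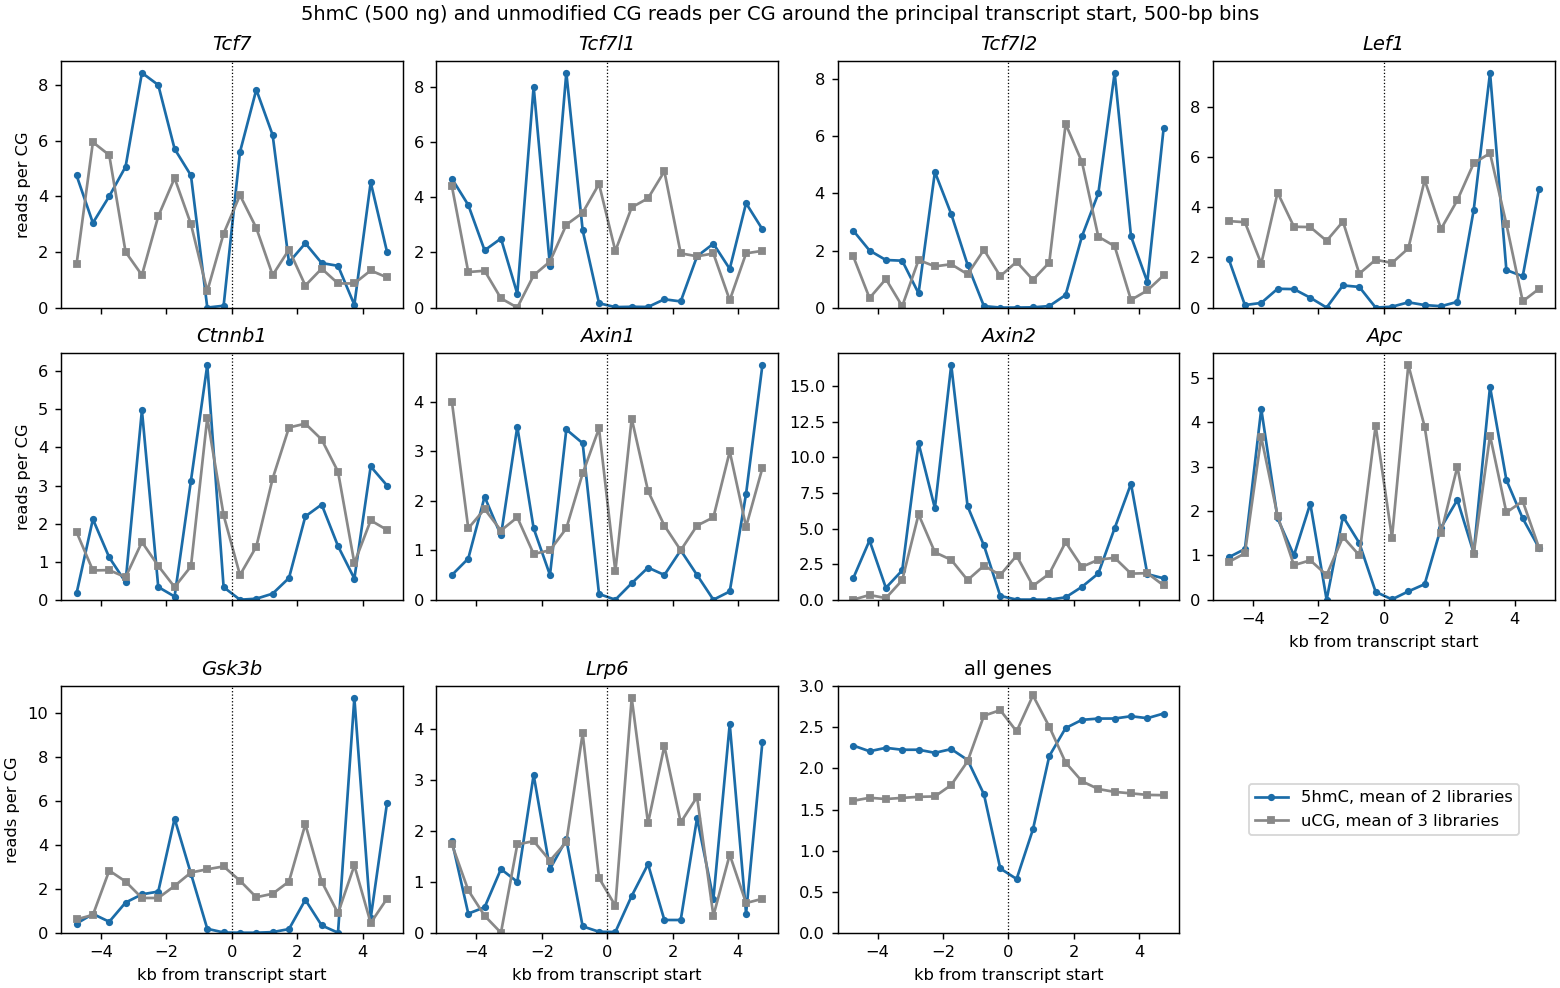
Reads per CG in 500-bp bins from 5 kb before to 5 kb after the principal transcript start (dotted line), for 5hmC (blue, mean of both 500-ng libraries) and uCG (grey, mean of 3 uTOP-seq libraries); each panel has its own vertical scale. In 9 genes 5hmC drops to near 0 at the start, in Tcf7 the gap lies before it, and over all genes the lowest bin has 0.654 5hmC reads per CG.

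Together, the first exons of the 10 genes had 485 CGs with 14 and 15 5hmC reads, or 0.0299 reads per CG, and the last exons 517 CGs with 2022 and 2006 reads, or 3.90 reads per CG. The exons between them had 553 CGs with 2187 and 2147 reads, or 3.92 reads per CG, so that in these pooled means the first exons were low and the last exons level with the rest. The uCG reads were 1.67 per CG in the first exons and 1.32 in the last. In 6 genes the first exon had no 5hmC read at 500 ng: Ctnnb1 (40 CGs), Axin1 (48), Lrp6 (41), Axin2 (19), Tcf7l2 (16) and Tcf7 (1). First exons without a read were not counted over all genes. A count of 0 allows up to 3 reads in a library, which is 0.0625 reads per CG for Axin1, 0.158 for Axin2 and 3.0 for the single CG of Tcf7. These exons also differed in uCG, with 0.333 reads per CG in Axin1, 0.593 in Lrp6 and 0.775 in Ctnnb1, against 1.81 in Tcf7l2 and 3.0 in Axin2. In the first 3 genes the exon was thus thinly read by both assays, and the single CG of Tcf7 says little.

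The last exon of Tcf7l1 had 8.61 and 6.89 5hmC reads per CG, against 2 and 0 reads in all over the 64 CGs of its first exon. The last exon of Tcf7l2 had 6.55 and 6.18 reads per CG, and that of Axin2 6.24 and 6.40. Lrp6 had 4.36 and 4.31 reads per CG over the 78 CGs of its last exon, Gsk3b 3.41 and 3.86 over 91 CGs, and Apc 2.13 and 2.26 over 145 CGs. The last exons of Ctnnb1 (1.95 and 1.32 reads per CG) and Lef1 (1.21 and 2.24) were low and overlapped each other. Of the 107 exons between the first and the last that hold a CG, 38 had a higher mean than the last exon of their gene, in 9 of the 10 genes, and in 29 of them, in 7 genes, both libraries lay above both of the last exon. Most hold few CGs. In Lef1 7 of 9 such exons did so, among them exon 4, with 118 and 138 reads over 9 CGs, or 14.2 reads per CG, and exon 5, with 67 and 66 reads over 3 CGs, or 22.2. Exon 8 of Tcf7l2 had 139 and 114 reads over 8 CGs (15.8 reads per CG), exon 10 of Apc 60 and 106 over 9 (9.22), and exon 11 of Ctnnb1 50 and 52 over 6 (8.50). In Axin2 exon 8 was higher than the last, with 11 and 11.1 reads per CG over 10 CGs. No exon between the first and the last exceeded the last exon of Tcf7l1 in its mean.

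Low coverage often continued into the first intron, but not in every member. The first introns of Gsk3b and Apc had 2.44 and 1.85 5hmC reads per CG, against 1.86 and 1.77 over all introns of the gene. The first intron of Axin2 had 0.148 and 0.187 5hmC reads per CG over 209 CGs, while its intron 4 had 5.59 and 4.66. The first intron of Lef1 had 0.598 and 0.617 reads per CG over 107 CGs, and intron 5 had 5.27 and 6.58. The same first intron of Lef1 gave 4.29 uCG reads per CG, so that the order of the assays turned between these introns (2.42 uCG reads per CG in intron 5). The most covered intron with at least 10 CGs was intron 11 of Tcf7l2, with 8.50 and 11.3 5hmC reads per CG over 10 CGs.

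Each gene was divided into 10 equal parts from its start to its end. Over all genes the profile rose from 1.29 5hmC reads per CG in part 1 to 2.45 in part 10. Axin2 had 0.397 and 0.502 reads per CG in part 1 and 6.85 and 6.72 in part 10. Axin1 had 0.397 and 0.570 in part 1 and 2.58 and 1.92 in part 10, and Lrp6 0.789 and 0.939 against 2.78 and 2.89. Tcf7l1 differed in shape: it was highest in part 4, with 6.06 and 5.66 reads per CG, and part 10 had 3.81 and 3.44. Tcf7 peaked in part 3, with 9.51 and 9.67 reads per CG. Ctnnb1 was lowest in part 2, which holds 214 of its CGs and the start of its principal transcript, with 0.509 and 0.430.

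**Figure D3:**
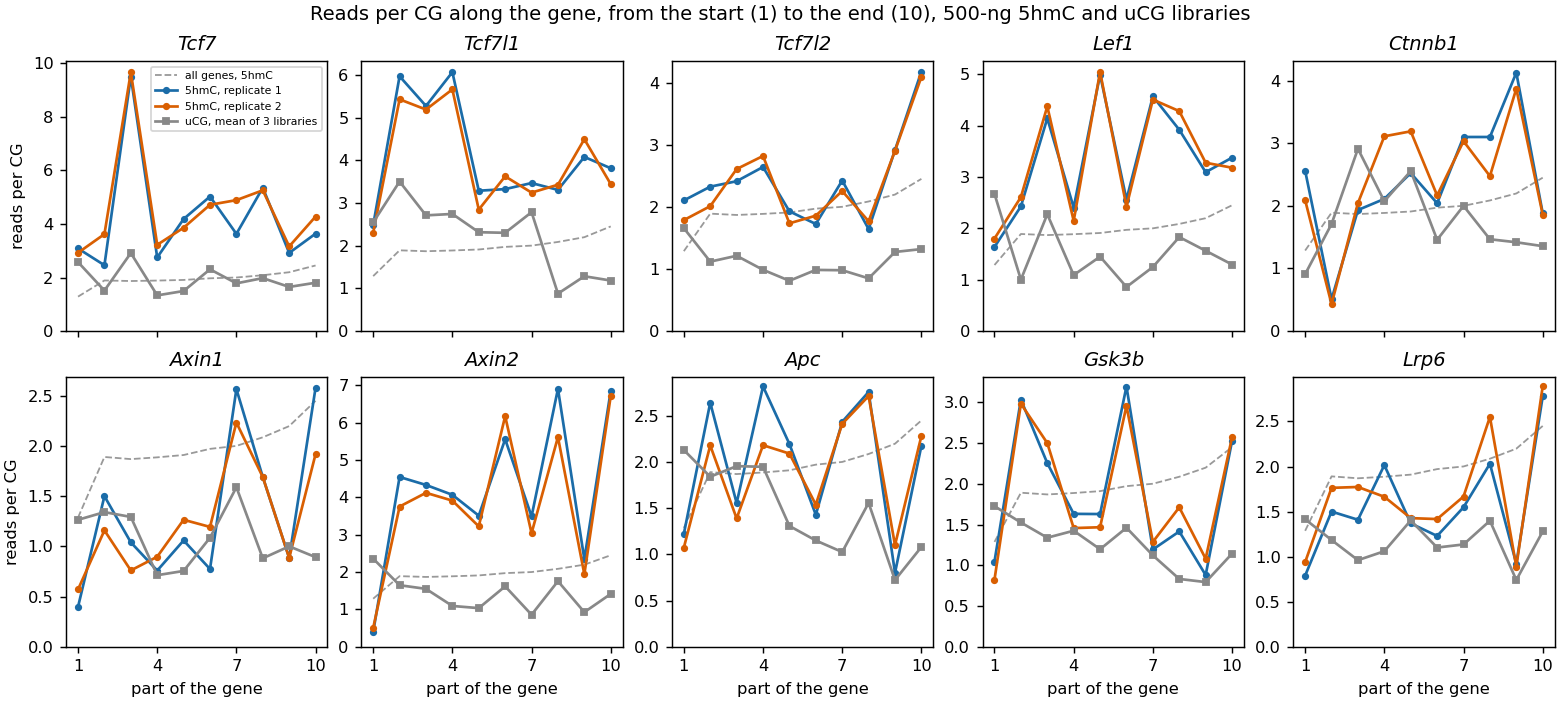
Reads per CG in 10 equal parts of each gene from start (1) to end (10): 5hmC of each 500-ng library (blue and orange), uCG (grey, mean of 3 libraries) and the 5hmC mean of all genes (dashed); each panel has its own vertical scale. The replicates follow each other closely, Axin2 climbs from below 0.6 to above 6, and Tcf7 peaks above 9 in part 3.

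Exons and introns were compared in the same way over 16993 genes. Of the 10 members 3 were higher in exons and 1 was lower, where 49.7% of all genes tested were called higher and 25.2% lower (74.9% in either direction). Lrp6 had 2.19 and 2.48 exon reads per CG, a log2 difference from its introns of 0.70 ± 0.07 (edgeR adjusted p = 4.3e-20). Tcf7l2 was higher by 0.33 ± 0.05 on the log2 scale, and Tcf7l1 was lower in exons by -0.52 ± 0.06 (adjusted p = 2.5e-09 and 1.1e-18 in edgeR). Apc was called higher at 0.25 ± 0.08 (edgeR adjusted p = 0.0020), but its value was 0.45 without the first 500-ng library and 0.04 without the second. Axin1 (0.27 ± 0.14, edgeR adjusted p = 0.065), Axin2 (0.09), Ctnnb1 (0.06), Lef1 (-0.08), Tcf7 (-0.09) and Gsk3b (-0.10) did not pass. In Ctnnb1, 82 of 572 CGs are shared with other genes, and without them its log2 difference was -0.62 (edgeR adjusted p = 3.5e-05); the other 9 genes share none.

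The unmodified CGs showed another order of gene elements. In uTOP-seq, 7 of 10 promoters were higher than the introns of the same gene and 1 was lower, where 55.3% of the 17265 genes tested were called higher and 12.7% lower (68% in either direction). Gsk3b was highest in this comparison, with 3.47, 3.06 and 2.16 promoter reads per CG against 1.38, 1.17 and 1.04 in introns (log2 1.27 ± 0.09, edgeR adjusted p = 1.7e-12). Axin1 differed by 1.22, Tcf7l1 by 0.84, Apc by 0.82, Tcf7l2 by 0.71, Lef1 by 0.41 and Axin2 by 0.29 on the log2 scale. Axin2 (edgeR adjusted p = 0.029) lost its call without the first or the second uTOP-seq library (adjusted p = 0.12 and 0.25) and with the replicate number as a block (0.064). Lef1 lost it with 1 kb upstream (log2 0.13, edgeR adjusted p = 0.34). With 1 kb upstream, 5 of 10 members were called higher and 1 lower, against 10012 higher and 1682 lower of the 16367 genes tested. Lrp6 (0.17 ± 0.10) and Tcf7 (0.08 ± 0.09) did not pass.

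Ctnnb1 was lower in its promoter by -0.60 ± 0.16 in uTOP-seq (edgeR adjusted p = 0.0019), with 1.54, 1.04 and 1.17 promoter reads per CG against 2.21, 1.90 and 1.58 in introns. Upstream of its principal transcript the difference turned to 0.23 (edgeR adjusted p = 0.050). In 5 genes, Apc, Gsk3b, Lef1, Tcf7l1 and Tcf7l2, the promoter was called lower for 5hmC and higher for uCG over the same 2 kb, where 30.5% of the 16740 genes tested in both assays met both calls.

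**Figure D4:**
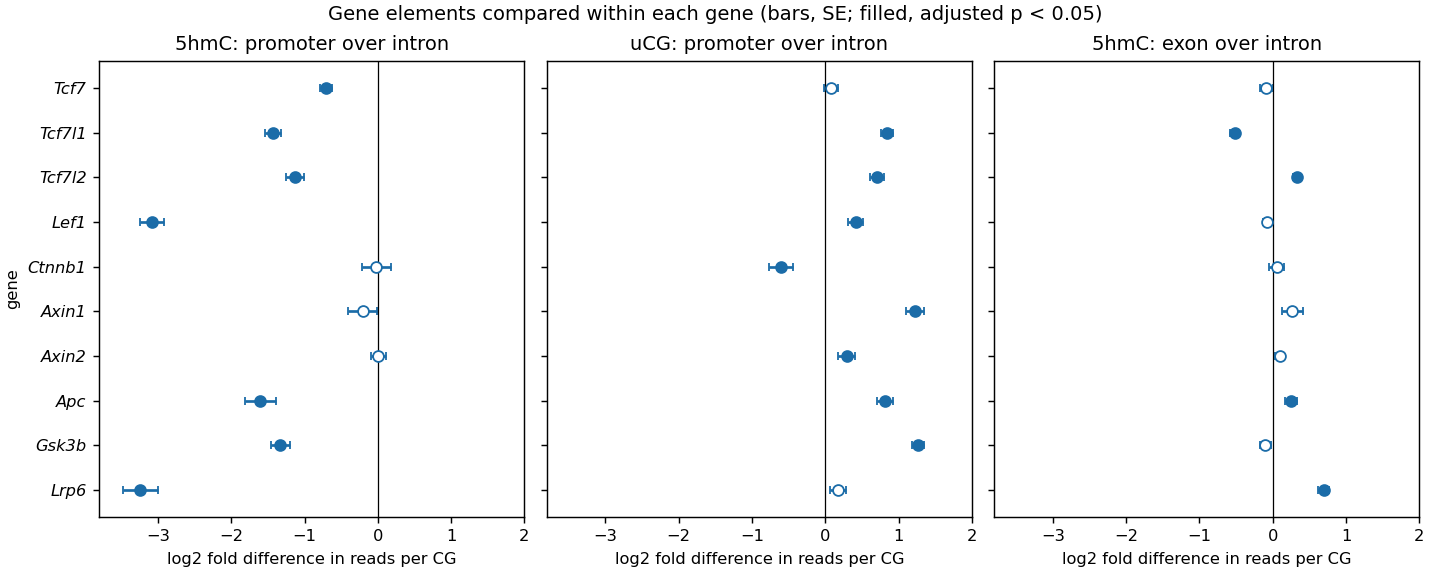
Log2 difference in reads per CG between gene elements for the 10 genes (500-ng libraries for 5hmC, uTOP-seq for uCG); bars are the standard error of the edgeR fit and filled points passed an adjusted p of 0.05. Filled points lie left of 0 for 5hmC promoters, from -0.71 to -3.24, and right of 0 for uCG promoters except in Ctnnb1.

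Reads of the whole gene were then compared between hmTOP-seq at 500 ng and uTOP-seq, each relative to its own libraries, by edgeR's quasi-likelihood test over 19522 genes. Of the 10 members 7 were higher in 5hmC and 1 was lower, where 40.3% of all genes tested were called higher and 41.8% lower (82.1% in either direction). A difference here is one of relative rank between assays and not a ratio of modified to unmodified cytosines. Among the genes of the TCF/LEF factors, Tcf7l2 had a log2 difference of 0.89 ± 0.03, Tcf7 0.82 ± 0.05, Lef1 0.82 ± 0.04 and Tcf7l1 0.67 ± 0.03. Axin2 had 0.90 ± 0.05, and the largest edgeR adjusted p of these 5 genes was 6.3e-20. They lay at the percentiles 81.6 to 89.0 of all genes tested.

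Lrp6 (0.25 ± 0.05) and Gsk3b (0.23 ± 0.04) were higher in 5hmC by smaller log2 differences (edgeR adjusted p = 1.8e-05 and 5.7e-06). Apc (0.07 ± 0.05) and Ctnnb1 (-0.05 ± 0.06) did not pass. Axin1 was called lower, at -0.22 ± 0.08 (edgeR adjusted p = 0.016), but the call was lost with DESeq2 (adjusted p = 0.068) and without the first or the second 500-ng library or the first uTOP-seq library (edgeR adjusted p = 0.058, 0.076 and 0.12). Without the CGs that it shares with other genes, Ctnnb1 was lower in 5hmC by -0.40 (edgeR adjusted p = 5.4e-06). In that setting the normalization was refitted, and the median log2 difference of the 10 members fell from 0.46 to 0.33. The other members share no CG, so that the change in Ctnnb1 does not rest on its shared CGs alone.

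The levels behind these differences were uneven within uTOP-seq too. Tcf7l1 had 2.75, 2.16 and 1.91 uCG reads per CG, a relative coverage of 1.97 ± 0.0347 (SD, n = 3) at the percentile 76.8 of all genes. Tcf7l2 had a relative uCG coverage of 1.02 ± 0.0157 at the percentile 33.7, although its 5hmC lay at the percentile 70.4. Tcf7l1 and Tcf7 were thus high in both assays, while Tcf7l2 was high in 5hmC alone. Of the 13911 CGs, the share read as unmodified in all 3 libraries ran from 14.3% in Tcf7l2 to 30.9% in Tcf7l1. It was 14.6% of all autosomal CGs, those outside genes included. In Tcf7l1, 519 of 2540 CGs were covered in both 500-ng libraries and in all 3 uTOP-seq libraries.

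The uCG counts keep the strand. The share of uCG reads on the sense strand ranged from 44.9% ± 1.33 (SD, n = 3) in Apc to 54.4% ± 1.39 in Lrp6.

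The 5hmC level was then compared between inputs, which asks how far the values of a gene depend on the amount of DNA. Of the 10 members none was called at 50 ng against 500 ng in edgeR's quasi-likelihood test, where 0.00532% of 18814 genes were called. That is 1 gene, Gm20388, named here after its value was seen, with a log2 difference of -0.08; 2180 genes had an unadjusted p below 0.05, and DESeq2 called 140. Of the 10 members none was called at 5 ng against 500 ng, where 0% of 18639 genes were called, with 2131 genes at an unadjusted p below 0.05 and 992 called by DESeq2. In 8 of 10 members the log2 difference at 50 ng lay between -0.02 and 0.05, Gsk3b had 0.06 ± 0.07, and Axin2 stood apart.

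Axin2 had a relative coverage of 2.22 and 2.15 in the 500-ng libraries, 1.78 and 1.91 in those of 50 ng, and 1.85 and 1.41 in those of 5 ng. Both libraries of each lower input thus lay below both of 500 ng. The log2 difference was -0.23 ± 0.06 at 50 ng (edgeR adjusted p = 0.29) and -0.37 ± 0.15 at 5 ng (edgeR adjusted p = 0.44). At 50 ng it did not pass with no filter, with CGs of other genes left out or without either 500-ng library (edgeR adjusted p = 0.32, 0.29, 1.0 and 1.0). It passed with DESeq2 (adjusted p = 0.030), with the replicate number as a block (edgeR adjusted p = 0.044) and without either 50-ng library (adjusted p = 0.015 and 6.4e-05). Its promoter went from 3.06 and 3.68 reads per CG at 500 ng, or 2.16 in relative coverage, to 1.23 and 1.57 at 50 ng, or 1.28, but at 5 ng it had 1.81 and 1.70 reads per CG, or 2.40 in relative coverage, so that the promoter was not lower at the lowest input.

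Some members spread more between replicates at 5 ng. Lef1 had a relative coverage of 2.28 and 1.62 in the 5-ng libraries, against 1.98 and 2.06 at 500 ng. The Apc promoter had 0 reads in one 5-ng library and 70 in the other, and that of Tcf7l1 had 88 and 1. The Ctnnb1 promoter had 14 and 0. Over whole genes the order held better: Tcf7 and Tcf7l1 were the highest members at each input, at 2.64 and 2.47 in relative coverage at 5 ng, and Axin1 the lowest, at 0.88.

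**Figure D5:**
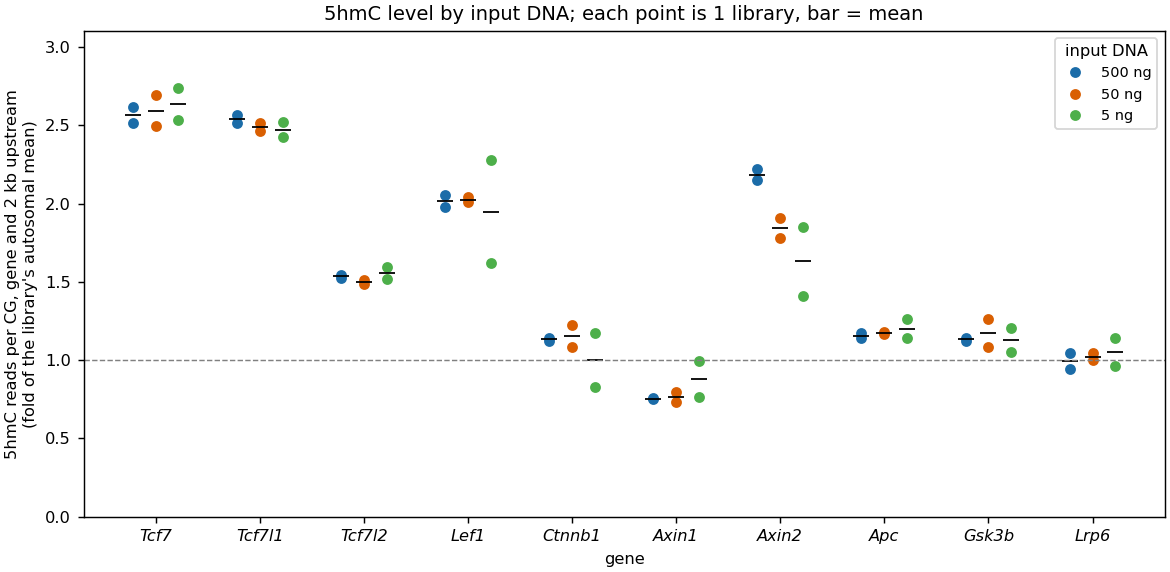
Relative 5hmC coverage of gene and upstream 2 kb at 500, 50 and 5 ng of input DNA; each point is 1 library, bars are means, and the dashed line is the autosomal mean. Axin2 is lower in both libraries of 50 and 5 ng than at 500 ng (means 2.18, 1.85 and 1.63), and the largest gap between replicates is that of Lef1 at 5 ng (2.28 and 1.62).

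The control libraries without BGT gave 5 and 4 reads in the 10 genes at 500 ng, against 37282 and 36768 in the labelled libraries. At 50 ng no control read fell in the genes, where 3 reads would be a share of 0.0886% and 0.0885% of the autosomal control reads and the upper Clopper-Pearson bound is 0.109% in both, and at 5 ng 0 and 2 reads did. The members took 0.116% of the autosomal reads in both labelled 500-ng libraries (95% Clopper-Pearson intervals 0.115 to 0.117 and 0.115 to 0.118), 0.114% and 0.115% in the 50-ng libraries, and 0.118% and 0.109% in the 5-ng libraries. Their share in the 500-ng controls was 0.0503% (0.0163 to 0.117) and 0.0434% (0.0118 to 0.111). Duplicates were removed without molecular identifiers, so these intervals and limits cover counting error only.

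TCF/LEF factors bind DNA with the core CTTTGAT, and this string of 7 letters was looked for on both strands. It occurred in the upstream 2 kb of Tcf7 (2 matches), Ctnnb1 (1) and Lrp6 (1) and in none of the other 7, while 27.3% of all promoters of this length hold it. The 253 member CGs within 50 bp of a match had 2.25 and 2.07 5hmC reads per CG at 500 ng, and the other CGs 2.69 and 2.65. Over all genes the values were 1.66 and 1.65 near a match and 1.91 and 1.87 elsewhere, so that in both sets CGs near a match had less 5hmC. Single genes varied: Axin2 had 0.524 reads per CG over 41 CGs near a match and 3.56 elsewhere, while Axin1 had 5.64 over 11 CGs and 1.08 elsewhere. These are descriptions of neighbouring CGs, which share their gene and base composition.

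A list of 80 other genes of the pathway placed the members among their partners. In the 500-ng libraries 60 of the 80 lay above the median of all genes in reads per CG over gene and upstream 2 kb, and the median relative coverage was 1.57. All 19 WNT ligand genes lay above it, with a median relative coverage of 2.44, whereas 7 of 14 receptor genes did, with 0.942. The highest were Wnt8a, a ligand, with 7.50 reads per CG, the co-repressor Tle2 with 5.95 and Apc2, a relative of Apc, with 5.70. The lowest were the target gene Myc with 0.332 and the Frizzled receptor genes Fzd5 and Fzd7 with 0.467 and 0.479.

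Against uCG, 45 of the 80 were called higher in 5hmC and 25 lower (edgeR, adjusted over all genes, with the shares of all genes as above). The median log2 difference was 0.28 for the list and -0.03 for all genes. Ligand genes had 14 of 19 higher and 1 lower, and the 14 receptor genes 6 higher and 7 lower. The promoter was lower in 5hmC than the introns in 37 of the 74 genes that could be tested and higher in 22, near the shares of 49.8% and 25% of all genes. Of the 19 ligand genes 9 were higher in the promoter and 6 lower, and of the 9 nuclear cofactor genes 7 were lower and 2 higher; differences between these groups of genes were not tested. None of the 80 was called at 50 or at 5 ng against 500 ng in edgeR.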

How the data were processed

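The Ion Proton reads were trimmed by the authors, those under 80 nt were discarded, and the rest were aligned to mm10 (mapping quality 30 or more). Duplicates of equal start and length were removed and reads were assigned to CGs. The deposited values are raw read counts per CG and library, with no normalization: 5hmC counts merge both strands, uCG counts are by strand. All 20383623 autosomal CG positions lay on a CG of GRCm38.

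Counts were summed over promoter (2 kb upstream), exon, intron and gene of GENCODE M21 genes. Tests used edgeR 4.0.16 (quasi-likelihood) over all genes with at least 5 CGs and 10 mean reads, and DESeq2 1.42.0 as alternative, in R 4.3.3. Element comparisons needed 5 CGs in each element. In edgeR, whole-gene comparisons used TMM, and element comparisons used the number of CGs and the library total as offset, without TMM. The tests were also run on simulated data with genes changed 2-fold. Of these genes, 81% were recovered at 50 against 500 ng, 12.5% at 5 against 500 ng and 94% for 5hmC against uCG. For 5hmC promoters, 5hmC exons and uCG promoters against introns, 76%, 88% and 86% were recovered. Of the genes called in these simulations, 10.4% were false for uCG promoters against introns, above the intended 5%. In each of the other comparisons at most 5% were false. Groups were assay and input. Depth is given in the report. Alternatives were no filter, a replicate block, leaving out each library, CGs of other genes left out, 1 kb upstream, a limit of 20 reads per CG and, chosen after the data were seen, the principal transcript's start. All 10 members were named, with the strongest CG of each and the 3 highest and 3 lowest of the 80 pathway genes. The members and lists were chosen with earlier results of these data known. Intervals are Clopper-Pearson, and CG windows come from the reference. Chromosome X was not used here.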

Additional observations from a re-analysis of the deposited data

Results flagged for a closer look

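In 4 comparisons of gene elements within a member the log2 ratios had opposite signs in both libraries of one input and both of another. The difference between the inputs was not tested. In Axin2, the promoter differed from the introns by a mean log2 ratio of -0.59 in reads per CG at 50 ng and 0.68 at 5 ng. The exons of Axin2 differed from its introns by 0.090 at 500 ng, -0.083 at 50 ng and 0.19 at 5 ng. The exons of Lrp6 differed from its introns by 0.70 at 500 ng, 0.68 at 50 ng and -0.32 at 5 ng, and those of Ctnnb1 by 0.056 at 500 ng and -1.59 at 5 ng. The 5-ng values rest on 37 and 58 reads in Ctnnb1 exons and on 243 and 154 in Lrp6 exons, and the part of depth in them was not tested.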

How the results depend on the processing

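With 2 technical replicates, the input comparisons depended on the setting. At 50 against 500 ng 1 gene and no member was called by edgeR. DESeq2 called 140 genes and 1 member, the replicate block 108 and 1, and no filter and CGs of other genes left out each called 0 genes. Without single libraries the counts were 1 to 2387 genes and 0 to 2 members; the high ones came without a 50-ng library (2379 and 2387), where the lone sample is assumed to vary like the 500-ng libraries. At 5 against 500 ng 0 genes were called, DESeq2 called 992, the replicate block 2, and leaving out single libraries gave 0 to 10836 genes and 0 to 6 members, the high counts without a 5-ng library (10836 and 10585). Log2 differences that reversed, given as the range without single libraries, were -0.055 to 0.12 for Ctnnb1, -0.052 to 0.17 for Gsk3b and -0.026 to 0.13 for Lrp6 at 50 ng, and -0.41 to 0.092 for Ctnnb1, -0.27 to 0.22 for Lef1 and -0.061 to 0.13 for Gsk3b at 5 ng; Ctnnb1 at 5 ng was also 0.094 without CGs of other genes. For 5hmC against uCG, Apc turned to -0.061 without CGs of other genes. Apc shares no CG, so that its own counts stayed the same while the normalization was refitted. For 5hmC promoters Axin2 turned to -1.46 with 1 kb upstream, and for exons Ctnnb1 to -0.62 without CGs of other genes. For uCG promoters Ctnnb1 turned to 0.23 at the principal transcript, and Tcf7 to -0.84 with 1 kb upstream and, without single uTOP-seq libraries, lay at -0.029 to 0.16.

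The median relative coverage of member promoters (0.662) was 0.672 from CGs covered in both replicates, 0.290 with 1 kb upstream, 0.553 at the principal transcript, 0.758 at 50 ng and 0.957 at 5 ng, and 0.659 to 0.666 without 1 library. That of exons (1.66) was 1.80 from CGs covered in both replicates, 1.61 with at most 20 reads per CG, 1.57 at 50 ng, 1.52 at 5 ng and 1.61 to 1.68 without 1 library, and that of introns (1.35) was 1.39 at 5 ng. Of 480 member values under the alternatives, 420 were counted as unchanged, 19 gained and 10 lost a call, and 13 reversed. Another 18 moved by more than the standard error in fits with no test. Unchanged values kept their side of the threshold or, in fits with no test, shifted by less than the standard error. A change of sign was allowed among them where neither value was called and the shift was below the standard error. The causes were not tested, other than the fewer samples of the fits without a library. Element comparisons at 500 ng without 1 library have no residual degrees of freedom and gave values only. The numbers of the replicates did not pair the inputs or the assays: the deviations of same-numbered libraries correlated at -0.014 to 0.035 across genes. That check does not cover the element comparisons. There both counts of a replicate come from the same library, and the main fit did not pair them, while the replicate block did. The replicate block changed 2 member calls, Axin2 at 50 against 500 ng and Axin2 for uCG promoters, both given above. In the 5-ng libraries 5.95% and 5.80% of autosomal CGs had a read, against 33.3% and 34.8% at 500 ng. Those libraries held 14713053 and 15100983 autosomal reads, against 32159559 and 31577846 at 500 ng. The paper reports more variability at lower input even where sequencing was deep. How far depth or the amount of input DNA limits the 5-ng libraries was not tested.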
